A study of Mus musculus with 6 samples.

Results

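The MYC and MAX network factors were examined in Normal cells, the NIH3T3 line of immortalized mouse embryonic fibroblasts, after treatment with forskolin (FSK) under low glucose (LG). The network was taken as 9 genes, Myc, Mycn, Max, Mxd1, Mxd3, Mxd4, Mxi1, Mnt and Mga, out of 16797 genes measured, and each was read by 1 probe set that the annotation pairs with its symbol alone. The data were 6 Affymetrix gene arrays of total RNA. The FSK-treated cells (NF, 3 arrays) received 10 μM FSK, a plant diterpene that stimulates adenylate cyclase and thereby protein kinase A (PKA), at 24 h and again at 48 h, and the untreated cells (N, 3 arrays) received no FSK. All cells of both groups were plated in 25 mM glucose, moved to 1 mM glucose after 16 h and harvested after a further 72 h, so that the low glucose and the serum-containing medium were common to NF and N. The labels call the 3 arrays of a group biological replicates. Both groups come from 1 established cell line. The labels name no vehicle, and the study's scheme gives DMSO to the cells without FSK. NF and N were taken from the labels as given, and the direction of every change below, that of the cell division markers included, rests on them. The labels were not checked against genes known to respond to FSK. Samples of other cells of the study were not analysed here.

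MYC proteins are transcription factors that bind DNA only as a pair with MAX, at the E-box sequence CACGTG, where they raise transcription of genes for ribosome production, metabolism and growth. The MXD proteins (Mxd1, Mxi1, Mxd3 and Mxd4), MNT and MGA also pair with MAX and bind the same sequence, and most of them bring in corepressors, so that they work against MYC. In fibroblasts, Myc is known as an early gene switched on by serum, and MXD proteins are known for their expression in cells that leave the cell cycle.

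The values are log2 expression values, so that a difference of 1 is a 2-fold change, and changes are given as NF minus N with their standard error (SE) or 95% interval. A value of one probe set was not set against that of another, because probes differ in brightness, and no order of level among the 9 genes is given. An array measures the share of a transcript in the RNA of a sample, so that fewer cells with the transcript and less transcript per cell cannot be told apart. A gene passed the test with an adjusted p under 0.05 in limma, adjusted over all probe sets tested. The array of N replicate 1 stood apart from the others: over 6015 probe sets of middle brightness its median difference from the mean of the other N arrays was -0.49, against -0.08 to 0.07 for the remaining 5 arrays. The markers of fibroblasts were bright, with means of 6.20 to 12.6 for the 7 measured here, while 4 of 5 epithelial, 3 of 3 immune and 4 of 4 endothelial markers lay under the median brightness of all tested probe sets (3.70).

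Of the 9 network genes, 1 passed the test. Myc was lower in NF cells than in N cells, and none of the other 8 passed in either direction. Mxd4, a MAX partner that represses, had the second largest change and was higher in NF cells on every array, but its adjusted p lay just above the threshold. Over all genes, 2.55% passed the test in NF against N, 0.72% lower and 1.83% higher. With further quantile normalization the share of higher calls among all calls was 57.6%, against 71.7% in the deposited values. A change of 1 or more on the log2 scale was reached by 1 of the 9, Myc, beside 2.74% of all genes. Of the 9, 5 had a positive and 4 a negative change, with a median of 0.12 beside -0.03 over all genes, and the median size of the change was 0.29 beside 0.16 over all genes. All genes include many dim probe sets, whereas 7 of the 9 lay above the median brightness. With probe sets under that brightness left out, the median over all genes was 0.09.

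**Figure D1:**
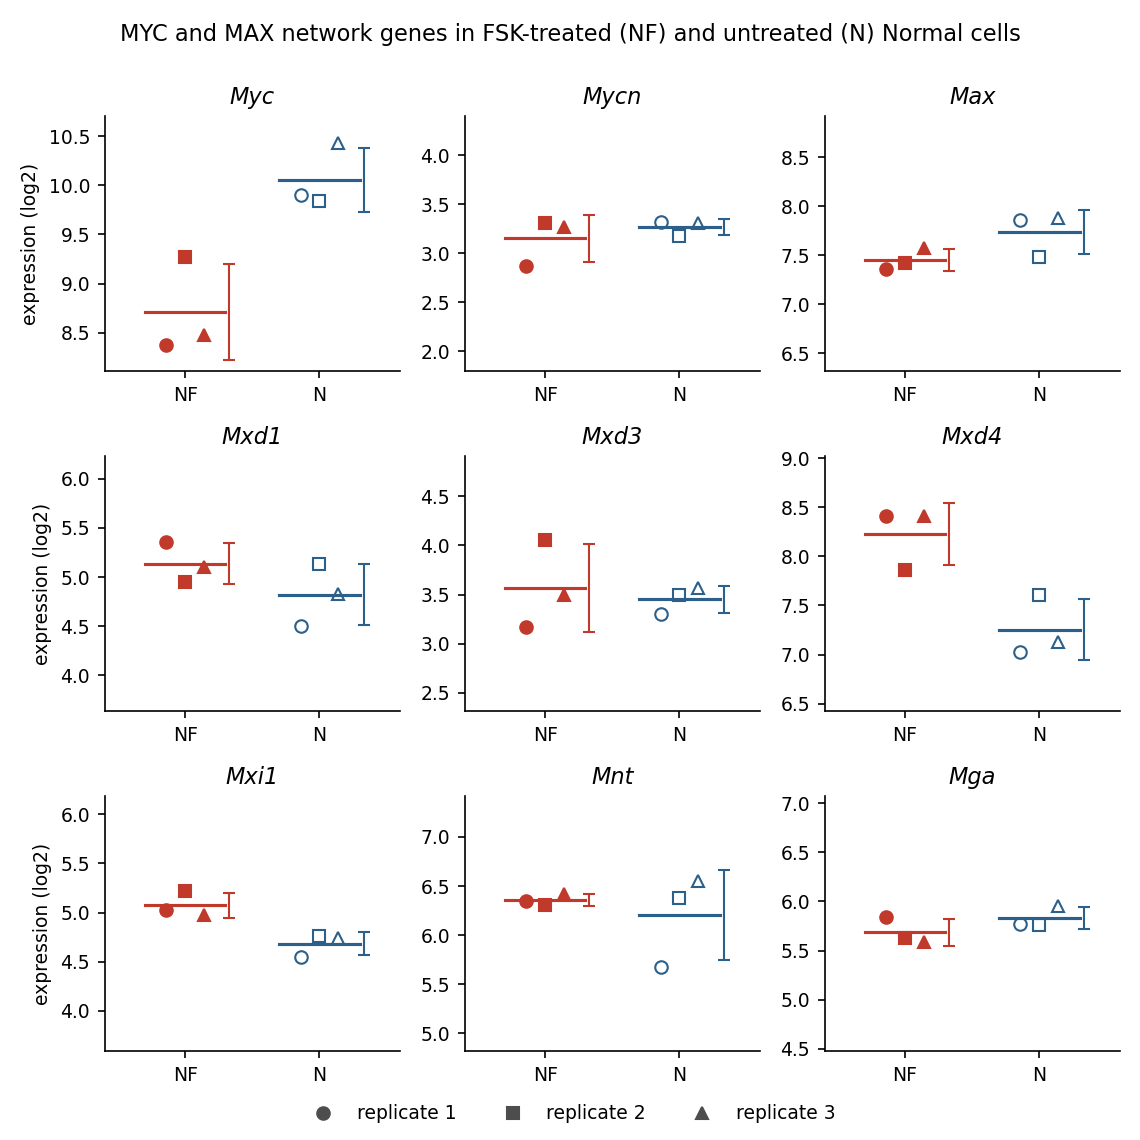
Log2 expression of the 9 network genes on each array, with NF left of N in every panel. Symbols give the replicate, horizontal lines the group mean and bars the SD of 3 arrays, and every panel spans the same range of log2 units. The 3 NF arrays of Myc lie below all 3 N arrays, and the 3 NF arrays of Mxd4 and of Mxi1 lie above all 3 N arrays.

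The E-box that the network binds occurs near the start of some of its own genes, and the stretches below are shown because 1 of them belongs to Mxd4. In the RefSeq promoter windows of GRCm38.p6, each of 250 bases before and 50 after an annotated start, 8 of the 9 genes had an entry, with 10 windows among them (Myc had none). An E-box, which reads the same on both strands, was found for Mxd4 on chromosome 5, Mnt on chromosome 11 and Max on chromosome 12. Each stretch is given 5′ to 3′ in the direction of its gene, with the E-box in capitals.
Mxd4, chr5:34187904-34187949, minus strand: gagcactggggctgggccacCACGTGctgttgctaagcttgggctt
Mnt, chr11:74830781-74830826, plus strand: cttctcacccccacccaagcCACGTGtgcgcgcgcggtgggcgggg
Max, chr12:76962226-76962271, minus strand: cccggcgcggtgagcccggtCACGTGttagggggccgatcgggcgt
The E-box began 219 bases before the annotated start in Mxd4, 123 bases before it in Mnt and 3 bases before it in Max. The share of all 32851 windows with an E-box was 7.15%. A cAMP response element, the palindrome TGACGTCA bound by CREB, was in 1.79% of all windows and in 0 of the 10, and its shorter form TGACG, which the palindrome contains, was in 20.8% of all windows on either strand and, among these genes, in that of Mga alone. An E2F-type sequence, TTTNNCGC on either strand, was in 5.17% of all windows and, among these genes, in that of Mycn alone. These are matches of letters, with no measurement of binding in these data.

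Myc encodes the founding member of the MYC proteins. Its log2 values were 8.38, 9.27 and 8.48 in NF replicates 1, 2 and 3, against 9.90, 9.84 and 10.43 in N replicates 1, 2 and 3. The groups did not overlap, and the highest NF array lay 0.57 below the lowest N array. NF replicate 2 was high among the NF arrays and N replicate 3 was high among the N arrays. The means were 8.71 ± 0.49 in NF and 10.06 ± 0.33 in N (SD, n = 3 each), a change of -1.35 (SE 0.27, 95% interval -1.96 to -0.74), or 2.55-fold lower in NF cells, with an adjusted p of 0.0447 in limma. The change was between -1.71 and -1.16 under every alternative run. The call was lost with a block for the replicate number (adjusted p = 0.0994 in limma) and in a test without limma's pooling of the spread over genes (adjusted p = 0.362). It was also lost when any of 4 arrays was left out: the adjusted p in limma was 0.229 without NF replicate 1, 0.239 without NF replicate 3, 0.0787 without N replicate 2 and 0.114 without N replicate 3. Leaving out N replicate 1, the array that stood apart, gave a change of -1.43 with an adjusted p of 0.0212 in limma, and leaving out NF replicate 2 gave -1.63 with 0.0237.

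Mycn encodes the MYC protein of embryonic and neural tissue. Its probe set was dim, with a mean below the median brightness of all tested probe sets. The values were 2.87, 3.31 and 3.27 in NF, against 3.32, 3.17 and 3.31 in N. The groups overlapped, and NF replicate 1 was the lowest array. The change was -0.11 (95% interval -0.47 to 0.24, adjusted p = 0.820 in limma), and it was 0.0249 without NF replicate 1, -0.19 without NF replicate 2, -0.17 without NF replicate 3 and -0.0493 with further quantile normalization.

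Max encodes the partner that MYC, MXD, MNT and MGA share. It had log2 values of 7.35, 7.42 and 7.58 in NF, against 7.86, 7.48 and 7.88 in N. NF replicate 3 was above N replicate 2, so that the groups overlapped, while the other N arrays were above every NF array. The change was -0.29 (95% interval -0.64 to 0.06) with an adjusted p of 0.488 in limma.

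Among the MXD genes, Mxd4 encodes a MAX partner that recruits the SIN3 corepressor. Its values were 8.42, 7.86 and 8.41 in NF replicates 1, 2 and 3, against 7.02, 7.61 and 7.13 in N replicates 1, 2 and 3. The groups did not overlap, and the lowest NF array lay 0.25 above the highest N array. The arrays nearest to the other group were NF replicate 2 and N replicate 2, and these were also the NF array with the most and the N array with the least Myc. The means were 8.23 ± 0.32 in NF and 7.25 ± 0.31 in N (SD, n = 3 each). The change was 0.98 (SE 0.21, 95% interval 0.48 to 1.47), a 1.97-fold higher mean in NF, with an adjusted p of 0.0618 in limma, so that Mxd4 did not pass. It passed with further quantile normalization (0.91, adjusted p = 0.0419 in limma) and when dim probe sets were left out of the test (0.98, adjusted p = 0.0428), and over all alternatives its change was 0.86 to 1.16 with an adjusted p of 0.0159 to 0.369.

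Mxi1 encodes MXI1, a MAX partner also called MXD2. It read 5.02, 5.22 and 4.98 in NF, against 4.55, 4.76 and 4.74 in N. The groups did not overlap, with a gap of 0.22, and N replicate 1 was the lowest array. The means were 5.07 ± 0.13 in NF and 4.68 ± 0.12 in N (SD, n = 3 each), a change of 0.39 (SE 0.13, 95% interval 0.09 to 0.70) that did not pass (adjusted p = 0.230 in limma).

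Mxd1 encodes the MXD protein known for its expression in differentiating cells. The values were 5.36, 4.95 and 5.11 in NF, against 4.50, 5.13 and 4.83 in N. The groups overlapped, since N replicate 2 was above NF replicates 2 and 3. The change was 0.32 (95% interval -0.12 to 0.75, adjusted p = 0.555 in limma), and it was 0.16 without N replicate 1 and 0.21 without NF replicate 1.

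Mxd3 encodes the MXD protein that, in mouse embryos, is known for its expression in cells in S phase. Its probe set was dim, as that of Mycn was, and read 3.16, 4.05 and 3.49 in NF, against 3.30, 3.49 and 3.56 in N. The NF arrays held both the lowest and the highest value, and the N arrays lay between them. The change was 0.12 (95% interval -0.39 to 0.63, adjusted p = 0.875 in limma), and it was -0.12 without NF replicate 2, the array with the highest value, 0.32 without NF replicate 1 and 0.0417 without N replicate 1.

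Mnt encodes a MAX partner that is expressed in most cells and opposes MYC. Its values were 6.35, 6.30 and 6.42 in NF, against 5.68, 6.38 and 6.55 in N. The NF arrays were close together and the N arrays spread around them, with N replicate 1 lowest of all 6. The change was 0.15 (95% interval -0.36 to 0.66, adjusted p = 0.832 in limma), and it was -0.11 without N replicate 1, 0.24 without N replicate 2, 0.33 without N replicate 3 and 0.0165 with further quantile normalization.

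Mga encodes a large protein that pairs with MAX in a Polycomb complex, PRC1.6. It read 5.84, 5.63 and 5.59 in NF, against 5.77, 5.76 and 5.96 in N. The groups overlapped through NF replicate 1, the highest NF array. The change was -0.14 (95% interval -0.45 to 0.17, adjusted p = 0.730 in limma). It was -0.27 with further quantile normalization, -0.22 without NF replicate 1, -0.0920 without NF replicate 3 and -0.0773 without N replicate 3.

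**Figure D2:**
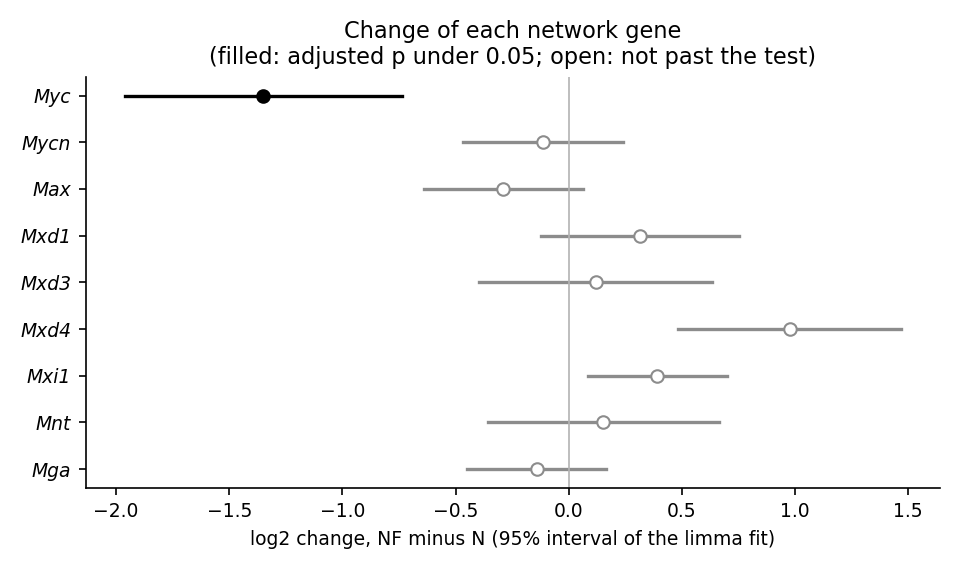
Log2 change of each network gene, NF minus N, with the 95% interval from the limma fit on 3 NF and 3 N arrays. Myc, at -1.35, is the filled point that passed the test, and the intervals of Mxd4 (0.48 to 1.47) and Mxi1 (0.09 to 0.70) also lie on one side of 0 although their adjusted p did not pass.

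In all, 3 of the 9 genes had groups that did not overlap, Myc lower in NF and Mxd4 and Mxi1 higher in NF, beside 20.2% of all genes, and the same 3 had an unadjusted p under 0.05 in limma, beside 13.8% of all genes. The SD over 3 arrays was between 0.06 and 0.49 in NF and between 0.08 and 0.46 in N for the 9 genes. The 8 that did not pass had 95% intervals between -0.64 and 1.47, so that a change of 2-fold was inside the interval of Mxd4 only.

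**Figure D3:**
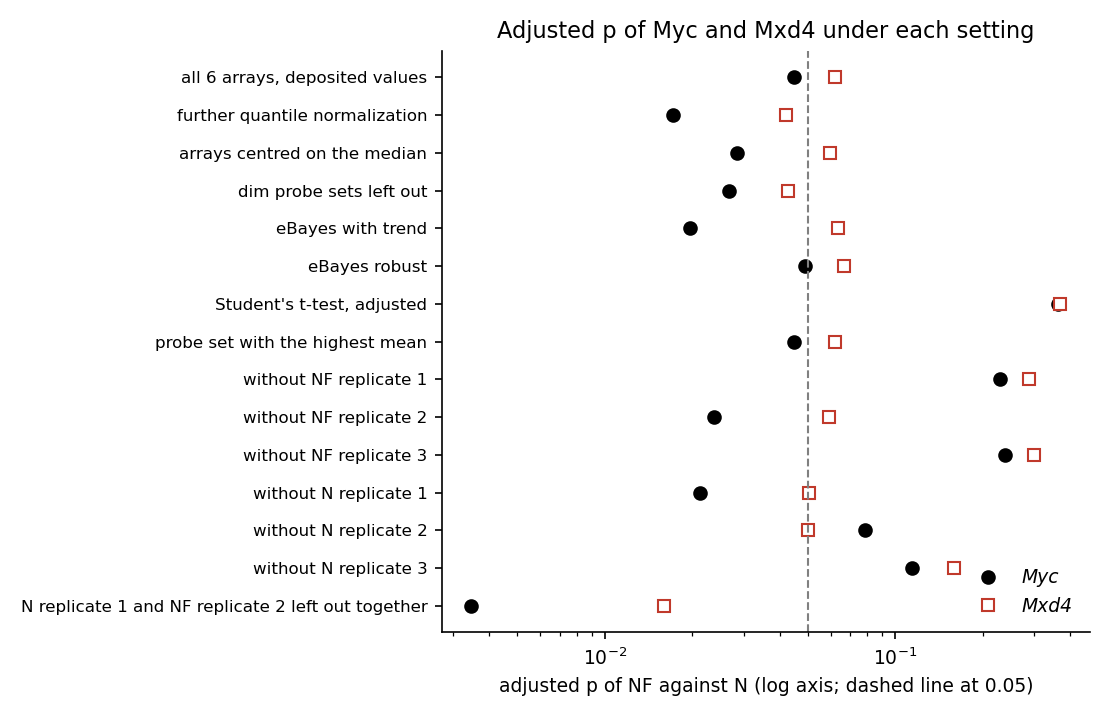
Adjusted p of Myc (filled circles) and Mxd4 (open squares) for NF against N, on a log axis with a dashed line at 0.05. Rows give all 6 deposited arrays and other scalings, filters, tests and left-out arrays. The fit with the replicate block, where the adjusted p of Myc was 0.0994 in limma, is not drawn. The circles of Myc lie right of the line when NF replicate 1 or 3, or N replicate 2 or 3, is left out and in the row of the test without limma's pooled spread, and the squares of Mxd4 lie left of it with further quantile normalization, without dim probe sets and with the pair of arrays left out together.

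The genes whose pattern over the 6 arrays was most like that of Myc were sought among 8305 other genes at or above the median brightness. They were Aldh1l2, a mitochondrial folate enzyme (Pearson r = 0.9996), Asns, asparagine synthetase (0.998), Slc7a1, a transporter of cationic amino acids (0.998), and Dennd4a, a DENN domain protein (0.997). The values describe 6 arrays that fall into separate groups, and no p is given. Which arrays were normalized together is not known, so a shared normalization may add to the likeness. After the group means were taken out, the likeness was 0.999 for Aldh1l2, 0.993 for Asns, 0.990 for Slc7a1 and 0.986 for Dennd4a. Being chosen for this likeness, they share the group difference of Myc and its highest array within each group. Their values are given as a description with no test.

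Aldh1l2 had log2 values of 7.71, 8.71 and 7.86 in NF, against 9.49, 9.37 and 10.02 in N, a change of -1.54. Asns had 10.15, 10.85 and 10.29 in NF, against 11.43, 11.44 and 11.94 in N, a change of -1.17. In both genes NF replicate 2 was the highest NF array and N replicate 3 the highest N array. The change was -1.93 for Slc7a1 and -1.16 for Dennd4a.

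**Figure D4:**
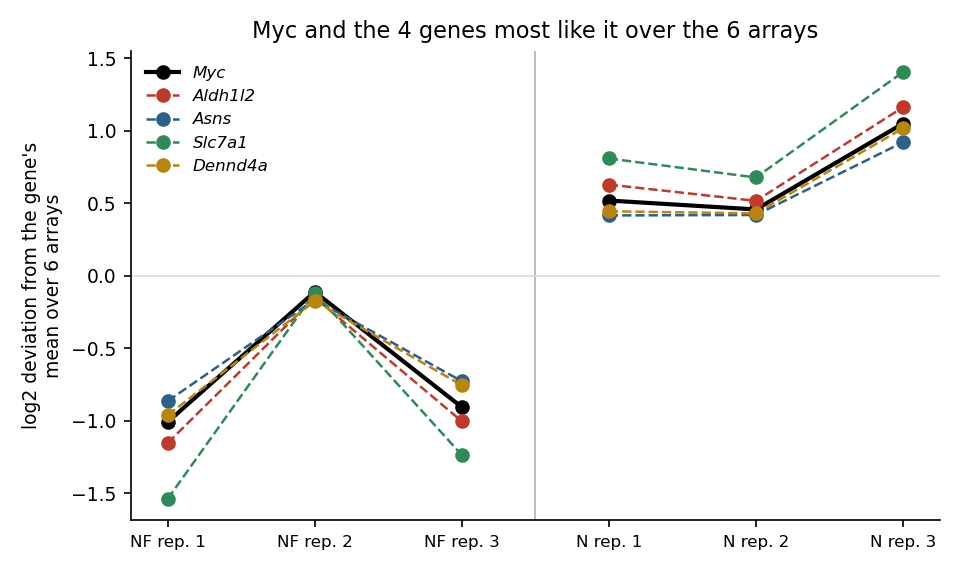
Log2 deviation of Myc (solid line) and of the 4 genes most like it (dashed lines) from its own mean over the 6 arrays, NF replicates 1 to 3 left of the vertical line and N replicates 1 to 3 right of it. All 5 genes are below 0 in NF and above 0 in N, with NF replicate 2 highest in NF and N replicate 3 highest in N.

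For Mxd3, whose probe set is dim, the most alike of 8306 genes were Gcnt4, a glycosyltransferase (r = 0.971), Ift22, a protein of intraflagellar transport (0.957), Coa8, a factor for cytochrome c oxidase (0.948), and P2rx3, an ATP-gated channel (0.942). Their changes lay between -0.10 for P2rx3 and 0.21 for Gcnt4, and NF replicate 2 was the highest array for each of them.

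Of the other members of the extended network, Mlx, Mlxip and Mlxipl, which encode a partner and the glucose-sensing factors that pair with it, 0 of 3 passed. Mlxip had 6.99, 6.78 and 7.10 in NF, against 6.07, 6.92 and 6.79 in N (change 0.36, adjusted p = 0.573 in limma). Mlxipl had a change of -0.11 (adjusted p = 0.820), and the groups overlapped for all 3 genes.

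The partners through which the network acts on chromatin gave no gene past the test. Among 12 coactivators of MYC, 8 had a positive and 4 a negative change, with a median of 0.25. That sign rested on N replicate 1: without it the median was -0.0058 with 7 of 12 negative, and without N replicate 3 it was 0.39. The lowest p were those of Ruvbl1, an ATPase of chromatin complexes (-0.35, adjusted p = 0.394 in limma), and Paf1, of the polymerase-associated factor complex (0.39, adjusted p = 0.416). Among 12 SIN3 and HDAC corepressors, through which MXD proteins and MNT repress, 11 had a positive change and the median was 0.21. Sap18, a SIN3-associated protein, had values of 4.22, 3.85 and 4.14 in NF, against 3.10, 3.54 and 3.51 in N (change 0.68, adjusted p = 0.0928), and Hdac1, a histone deacetylase, also had a change of 0.68 (adjusted p = 0.0921). Neither overlapped between groups and neither passed. N replicate 1 had the lowest mean deviation of these 12 genes, -0.33, against -0.06 and 0.01 in the other N arrays and 0.01 to 0.21 in the NF arrays. The median of the list was 0.13 both without N replicate 1 and with further quantile normalization.

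Among 10 partners of MGA in PRC1.6, 6 had a positive and 4 a negative change, with a median of 0.07 and 0 past the test. Leaving out N replicate 2 turned the median to -0.02, and leaving out N replicate 3 gave 0.18. Tfdp1, the partner of E2F factors, had a change of 0.69 (adjusted p = 0.0912 in limma) and Cbx3, a reader of methylated histone H3, a change of 0.43 (adjusted p = 0.125), and neither overlapped between groups.

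Among 13 genes of MYC protein turnover, 2 rose in NF, 0 fell and 11 did not pass, beside 1.83% of all genes higher and 0.72% lower. Cip2a encodes an inhibitor of the phosphatase PP2A that protects MYC protein from degradation, and it had 4.85, 4.60 and 4.99 in NF, against 3.79, 3.91 and 4.17 in N (change 0.86, SE 0.16, adjusted p = 0.0385 in limma). Plk1, a kinase of mitosis as well as of MYC turnover, had 7.79, 7.45 and 7.94 in NF, against 5.07, 6.39 and 6.39 in N (change 1.77, SE 0.35, adjusted p = 0.0443). All 3 NF arrays were above all 3 N arrays for both, and N replicate 1 was the lowest for both. The median of the 13 was 0.20, and it was -0.0266 with 7 of 13 negative without N replicate 1, 0.11 without NF replicate 3 and 0.31 without N replicate 3. Neither gene was past the test when any array other than N replicate 1 was left out. The level of MYC protein was not measured on these arrays.

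The nucleolar targets of MYC, 33 genes for ribosome production, had a negative change in 33 of 33. Their median was -0.48 beside -0.03 over all genes, of which 9207 of 16797 were negative. The list was chosen with earlier results of these data known, and 33 of its 38 genes were measured. With dim probe sets left out, the median over all genes was 0.09 with 3342 of 8307 negative, and 0 of the 33 targets were dim. Of the 33 targets, 1 fell past the test and 32 did not pass, beside 0.72% of all genes lower, and the groups did not overlap for 9, beside 20.2% of all genes. The gene that fell was Wdr74, a nucleolar WD repeat protein, with 7.32, 7.49 and 7.25 in NF, against 8.33, 8.05 and 8.58 in N (change -0.96, SE 0.16, adjusted p = 0.0295 in limma). The mean deviation of the 33 genes from their means over all arrays was -0.36, -0.06 and -0.30 in NF replicates 1, 2 and 3, against -0.09, 0.12 and 0.70 in N replicates 1, 2 and 3. NF replicate 2 lay close to N replicate 1, and N replicate 3, which also had the most Myc, stood far above the other 5. Without N replicate 3 the median was -0.26 with 26 of 33 negative, and without N replicate 1 it was -0.68 with 33 of 33 negative. The count past the test was 0 without NF replicate 1, 2 or 3 or N replicate 3, and 10 without N replicate 1.

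Among 32 growth targets of MYC, for transport, metabolism, translation and the cell cycle, 1 rose in NF, 2 fell and 29 did not pass, beside 1.83% of all genes higher and 0.72% lower, and the median was -0.13. Slc7a5, which imports leucine and other large neutral amino acids, had 8.54, 9.96 and 8.90 in NF, against 10.95, 11.17 and 11.75 in N, 4.45-fold lower in NF (change -2.15, SE 0.36, adjusted p = 0.0287 in limma). Slc1a5, a transporter of glutamine, had 8.05, 8.28 and 8.36 in NF, against 9.56, 9.26 and 9.66 in N (change -1.26, SE 0.16, adjusted p = 0.0116). In both transporters all NF arrays were below all N arrays, and for Slc7a5 NF replicate 2 was the highest of NF and N replicate 3 the highest of N, as for Myc. E2f1, a factor for entry into S phase, went the other way, with 6.41, 6.76 and 6.72 in NF, against 5.50, 5.88 and 5.70 in N (change 0.94, SE 0.16, adjusted p = 0.0276). Leaving out N replicate 3 turned the median of the 32 to 0.06, and it was -0.32 without N replicate 1, -0.0394 without NF replicate 1, -0.20 without N replicate 2 and -0.23 with further quantile normalization. The count past the test was 0 without NF replicate 1 or 3, 1 without N replicate 3 and 7 without N replicate 1.

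Among 8 genes that MYC is known to repress, 1 rose in NF, 2 fell and 5 did not pass. Over all genes, 1.83% were higher and 0.72% lower. The list held 10 genes, of which Cdkn1a and Cdkn1b were not measured, and 3 of the 8 measured were dim. The median was -0.04, and with each array left out in turn it lay between -0.17 (without N replicate 1) and -0.0024 (without N replicate 3). Gas1, a growth arrest gene, had 8.95, 8.65 and 8.83 in NF, against 7.43, 8.08 and 7.64 in N (change 1.09, SE 0.19, adjusted p = 0.0295 in limma). Gadd45a, a gene of growth arrest and DNA damage, had 7.13, 8.09 and 7.29 in NF, against 8.84, 8.92 and 8.96 in N (change -1.41, SE 0.24, adjusted p = 0.0290). Ndrg1, named for its repression by MYCN, fell by 1.00 (SE 0.19, adjusted p = 0.0445). NF replicate 2 was the highest NF array for Gadd45a and the lowest for Gas1. The count past the test was 0 without NF replicate 1 or 3 or N replicate 3, and 1 without NF replicate 2 or N replicate 2.

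**Figure D5:**
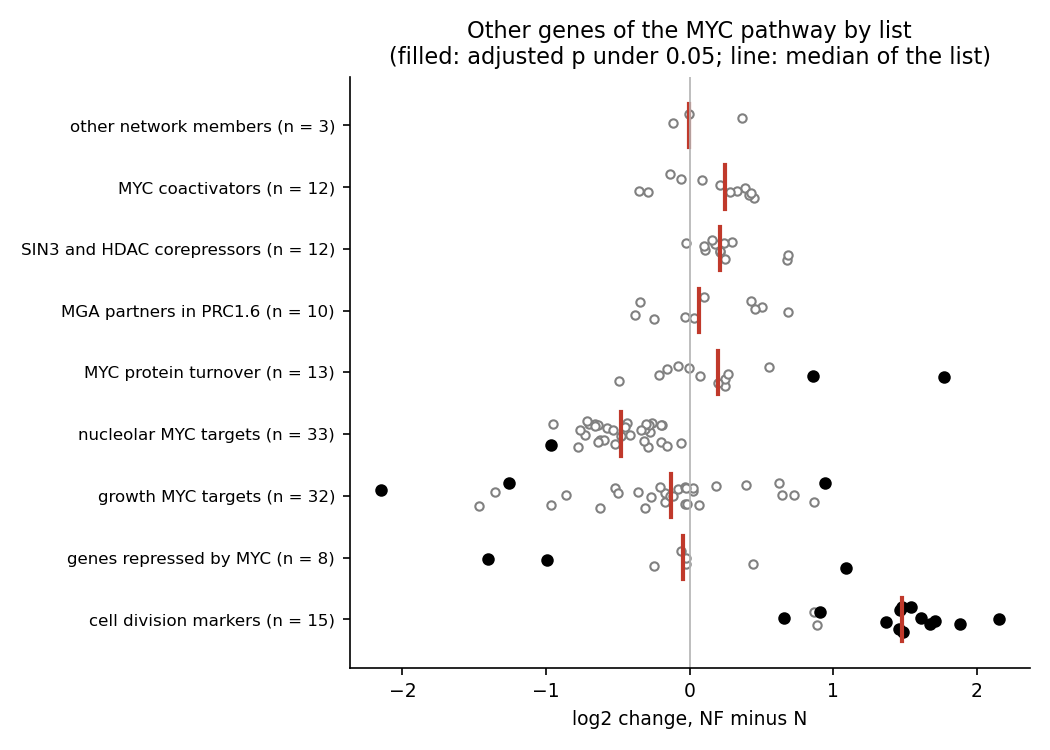
Log2 change, NF minus N, of every measured gene of the MYC pathway lists and of the cell division markers, one row per list, with filled points for genes with an adjusted p under 0.05 and a vertical line at the list's median. All 33 nucleolar targets lie left of 0 with a median of -0.48, and all 15 cell division markers lie right of 0 with a median of 1.48.

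For FSK-treated against untreated Normal cells, the study reports cell cycle and DNA-related pathways as enriched among repressed genes. Under the labels as given, cell division genes were higher in NF here, the reverse direction, and the reason was not tested. Markers of cell division moved with the groups in the direction opposite to Myc. Of 15 such markers, 13 rose in NF, 0 fell and 2 did not pass, with a median of 1.48, beside 1.83% of all genes higher. The markers with the lowest p were Top2a, a topoisomerase of dividing cells, which rose by 2.15 with 7.72, 7.39 and 7.66 in NF, against 5.11, 5.73 and 5.47 in N (adjusted p = 0.00562 in limma), Bub1, a mitotic checkpoint kinase (1.54), Cdk1, the mitotic kinase (1.46), the cyclins Ccna2 (1.48) and Ccnb2 (1.68), and Mcm6, of the replicative helicase (1.71). The mean deviation of the 15 markers was 0.80, 0.59 and 0.72 in NF replicates 1, 2 and 3, against -1.03, -0.43 and -0.65 in N replicates 1, 2 and 3. Within NF, replicate 2 had the lowest marker level and the highest Myc, while within N the lowest marker level was in replicate 1 and the highest Myc in replicate 3. The count past the test was 0 without NF replicate 1 or 3, and 8 without N replicate 3. The part of the cell division genes in the changes of Myc, Mxd4, E2f1 and Plk1 was not tested.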

How the data were processed

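Total RNA of 3 NF and 3 N samples was measured on Affymetrix arrays, 1 array per sample, and precision is limited by their number. The deposited log2 values were made by the authors with Robust Multi-array Average (RMA), which subtracts background, normalizes between arrays and summarizes probes, in the R package oligo. Its version, the ENSEMBL release and which arrays were normalized together are not given in the sources used here. The authors had dropped probe sets that map to no Entrez gene. Because RMA normalizes between arrays, a true shift of all RNA cannot be read from these values. The deposited arrays were still not equal: the SD over all probe sets was 2.42 in N replicate 1, against 2.58 to 2.62 in the others.

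Of 22035 probe sets, 18197 were paired with 1 gene symbol, 1260 with several and 2578 with none listed. Of the symbols, 18187 matched a RefSeq gene table and 0 changed. The 18197 probe sets, for 16797 genes (708 with several), were fitted in R 4.3.3 with limma 3.58.1 (lmFit and eBayes, no trend, not robust, no block), and p-values were adjusted after Benjamini-Hochberg over the 18197, with a threshold of 0.05. Where a gene had several probe sets the one with the lowest p was used, and each network gene had 1. The procedure was tested on simulated data. No column of values was left without a sample.

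The network genes and the 13 lists of other genes were chosen with earlier results of these data known. The genes named are the 9 network genes, the genes of each list past the test (up to the 6 with the lowest p, or the 2 with the lowest p where none passed), and the 4 genes with the highest Pearson r to Myc and to Mxd3 over the 6 arrays, among probe sets at or above the median mean value. Promoter sequences are from RefSeq (GRCm38.p6). Alternatives were a replicate block, further quantile normalization, centring on the array median, leaving out dim probe sets (mean under 3.70), eBayes with trend or robust estimation, Student's t-test (named in the study's general statistics, whereas its expression analysis names limma, as used in the main fit), the probe set with the highest mean, and leaving out each array. A fit without both N replicate 1 and NF replicate 2 was chosen after seeing the data.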

Additional observations from a re-analysis of the deposited data

How the results depend on the processing

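The change of Myc was negative, and that of Mxd4 and Mxi1 positive, under all 16 alternatives. The number of network genes past the test, 1 in the main fit, was 2 (Myc and Mxd4) with further quantile normalization, without dim probe sets and with N replicate 1 and NF replicate 2 left out together, 3 with Student's t-test unadjusted (Mxi1 added), 0 with it adjusted (0.362 for Myc), and 0 to 1 with each array left out. The number of all genes past the test, 428, was 860 with further quantile normalization (495 higher, 365 lower), 1038 with the pair left out, 1861 with the t-test unadjusted and 1 with it adjusted, and 1 to 922 with each array left out, with 1 without NF replicate 1, 2 without NF replicate 3, 139 without N replicate 3, 241 without NF replicate 2 and 922 without N replicate 1.

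The labels do not say whether the replicate numbers pair the arrays. The deviations from the group means correlated at -0.07, -0.08 and -0.07 between NF and N arrays of the same number. Each NF array was most like an N array of another number. Deviations around means of 3 arrays are tied to one another, so that these values cannot decide whether the arrays were paired. In the fit with the replicate block, 80 genes passed and 0 of the 9 network genes, with an adjusted p of 0.0994 in limma for Myc. The block left 1 growth target and 0 genes of MYC protein turnover, nucleolar targets and genes repressed by MYC past the test.

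For the nucleolar targets (1 past the test) the count was 8 with further quantile normalization, 3 with centring, 2 without dim probe sets, 5 with the t-test unadjusted and 0 adjusted, 13 with the pair left out and 0 to 10 with each array left out. For the growth targets (3) it was 6, 4 and 5 in the same scalings and filter, 6 with limma's trend, 9 with the t-test unadjusted and 0 adjusted, 10 with the pair left out and 0 to 7 with each array left out. For MYC protein turnover (2) and genes repressed by MYC (3) it was 0 with the adjusted t-test, and 0 to 2 and 0 to 3 with each array left out. For the SIN3 and HDAC corepressors (0) it was 1 with further quantile normalization, 3 with the t-test unadjusted and 2 with the pair left out, and for the partners of MGA (0) it was 5 with the t-test unadjusted.

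Of the network genes that did not pass, the change turned in sign for Mycn (0.0249 without NF replicate 1, and down to -0.19 with another array left out), for Mxd3 (-0.12 without NF replicate 2, -0.20 with the pair left out, and up to 0.32 with another array left out) and for Mnt (-0.11 without N replicate 1, -0.0821 with the pair left out, and up to 0.33). The cause of these differences was not tested. Dim probe sets, here Mycn and Mxd3, limit what a change can show.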
